A study of Mus musculus with 25 samples.

Results

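The mouse miR-219 and miR-338 loci were followed from young adulthood to old age in small RNA libraries of the brain hemisphere. They comprise 6 of the 1193 precursor hairpins in the deposited count table, chosen by name: mmu-mir-219a-1, mmu-mir-219a-2, mmu-mir-219b, mmu-mir-219c, mmu-mir-338 and mmu-mir-3065, written below without the species prefix. The set includes the hairpins annotated on the opposite strand of mir-219a-2 (mir-219b), of mir-219a-1 (mir-219c) and of mir-338 (mir-3065). The libraries came from male mice of the C57BL/6 inbred strain at 2, 9, 15, 24 and 30 months of age, with 5 libraries per age and 25 in all. Each library has its own animal number in the labels and was taken as 1 animal, and no treatment or mutation distinguishes the ages there. The study asked how miRNA levels differ with age, and the youngest age serves here as the baseline.

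miR-219 and miR-338 are known as miRNAs of the oligodendrocyte, the cell that wraps axons in myelin in the brain. As background, both rise when oligodendrocyte precursors stop dividing and mature, and miR-219 promotes that step by repressing genes that keep the precursors proliferating, among them the receptor of platelet-derived growth factor. A precursor hairpin is cut into mature miRNAs of its 5p and 3p arms, and bases 2 to 8 of a mature miRNA, the seed, direct it to its targets. A library of a whole hemisphere mixes all cell types, so more cells of a type and more RNA per cell cannot be told apart in these data.

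The mature sequences are given because the precursors are counted from reads of them, and the overlap between loci bears on every value that follows. All are RefSeq entries on assembly GRCm38.p6, written 5′ to 3′ with the seed in capitals. The arms miR-219a-2-3p and miR-3065-3p are named only.
miR-219a-5p (from both mir-219a-1 and mir-219a-2): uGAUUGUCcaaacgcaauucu
miR-219a-1-3p: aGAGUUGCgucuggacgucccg
miR-219b-5p: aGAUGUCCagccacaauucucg
miR-219b-3p: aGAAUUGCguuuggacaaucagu
miR-219c-5p: gGACGUCCagacgcaacucucg
miR-219c-3p: cGAGAAUUgcguuuggacaauc
miR-338-5p: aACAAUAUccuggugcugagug
miR-338-3p: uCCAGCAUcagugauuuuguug
miR-3065-5p: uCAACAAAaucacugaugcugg

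No 2 of these 9 mature sequences had the same seed, and no other mature miRNA among the 1679 of the RefSeq table had any of their seeds. miR-219a-5p is the same 21 bases at mir-219a-1 on chromosome 17 and at mir-219a-2 on chromosome 2, so a read of it names neither locus. The same 21 bases also lie whole in the mir-219b hairpin when that is read on its opposite strand, but only 20 of the 21 do so in mir-219c. miR-219b-5p and miR-219b-3p both lie whole in the opposite strand of mir-219a-2, and 22 of the 23 bases of miR-219b-3p also lie in the opposite strand of mir-219a-1. Both arms of mir-338 lie whole in the opposite strand of mir-3065, and miR-3065-5p lies whole in that of mir-338. How the authors counted a read with several matches, and whether they used its strand, is not given in the sources used here.

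The hairpins of 5 members are given because they show which arms face each other, with the annotated mature arms in capitals.
mir-219a-2: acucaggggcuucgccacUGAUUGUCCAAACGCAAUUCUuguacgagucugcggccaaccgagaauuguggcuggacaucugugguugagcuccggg
mir-219b: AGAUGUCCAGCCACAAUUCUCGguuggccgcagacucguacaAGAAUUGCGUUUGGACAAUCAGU
mir-219a-1: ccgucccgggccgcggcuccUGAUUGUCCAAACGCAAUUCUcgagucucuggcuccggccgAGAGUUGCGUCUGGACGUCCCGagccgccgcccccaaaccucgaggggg
mir-338: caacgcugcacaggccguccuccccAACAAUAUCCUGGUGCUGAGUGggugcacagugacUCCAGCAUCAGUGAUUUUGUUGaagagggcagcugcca
mir-3065: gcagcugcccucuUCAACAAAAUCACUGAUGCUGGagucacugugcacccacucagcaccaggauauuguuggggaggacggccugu

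On GRCm38, mir-219a-2 lies at chr2:29845631-29845727 on the minus strand and mir-219b inside it at chr2:29845647-29845711 on the plus strand. The GENCODE annotation places this pair between protein-coding genes, 629 bp from Urm1, which encodes a ubiquitin-like protein. mir-219a-1 lies at chr17:34024983-34025092 on the minus strand, with mir-219c at chr17:34025012-34025071 on the plus strand. That pair overlaps the exon of a long noncoding RNA, Gm26940, and lies 303 bp from Ring1, which encodes a Polycomb protein. mir-338 lies at chr11:120014765-120014862 on the minus strand, in an intron of the kinase gene Aatk and on that gene's strand, with mir-3065 at chr11:120014767-120014853 on the plus strand. The map of the hairpins shows these overlaps.

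**Figure D1:**
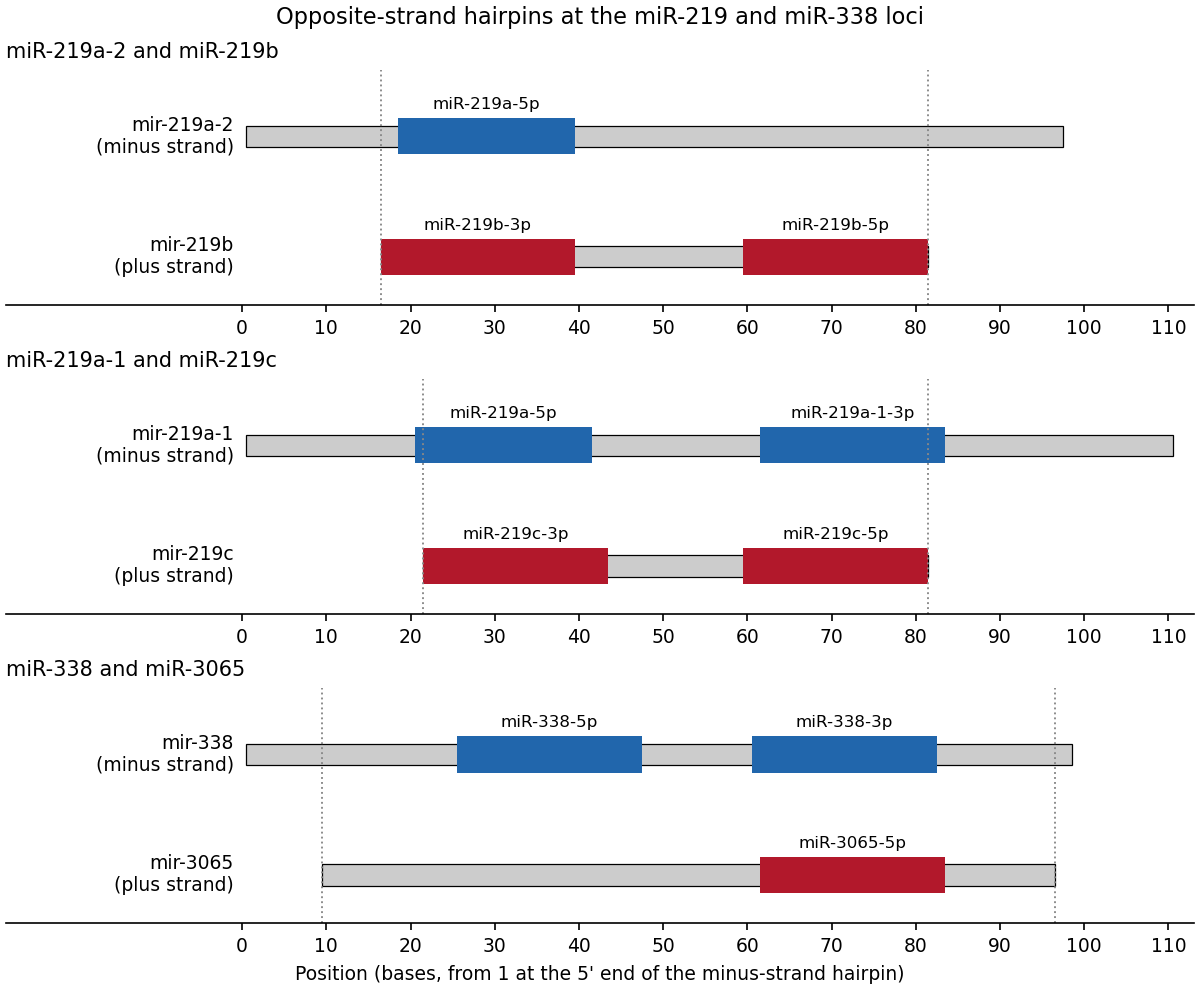
Maps of the 3 opposite-strand pairs, with position in bases from the 5′ end of the minus-strand hairpin on the x axis, hairpins as grey bars and annotated mature arms in blue (minus strand) or red (plus strand). The plus-strand hairpin lies inside its partner in each pair, between the dotted lines, and miR-219a-5p starts 1 base outside mir-219c.

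Total counts per library lay between 3.78 and 9.52 M reads (mega-reads) with a median of 5.61 M, and edgeR tested 425 precursors. Sequencing lane 3, with 5 libraries that cover the 5 ages, differed from the lanes of the other 20 libraries. The split between these groups accounted for 79.2% of principal component 2 of log2 CPM, which held 19.9% of the variance. Component 1, with 39.7% of the variance, owed 28.6% to age, and component 3, with 9.89%, owed 86.7% to it. The brain precursors mir-9-1 to mir-9-3 and mir-124-1 to mir-124-3 lay between 2304 and 13678 CPM over the libraries. In contrast, mir-208a of heart lay between 3.40 and 6.94 CPM, mir-122 of liver reached at most 5.99 CPM and mir-206 of skeletal muscle at most 1.12 CPM. CPM are counts per mega-read of library, scaled with the trimmed mean of M values (TMM). They are given per precursor and are not divided by hairpin length.

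At 30 months every tested member was higher than at 2 months, and the miR-219 hairpins had changed more than the miR-338 pair. mir-219b and mir-219a-1 stood at about the same fold, 3.01 and 2.98, and ranked 1 and 2 by fold among precursors averaging 10 CPM or more. mir-219a-2 was 1.64-fold and mir-338 1.45-fold higher. For the 3 tested miR-219 hairpins most of the difference arose between 24 and 30 months. By 24 months mir-219a-1, mir-219b, mir-338 and mir-3065 had passed the test against 2 months and mir-219a-2 had not.

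mir-219b, the plus-strand hairpin at the chromosome 2 locus, lay at 133, 134, 125, 124 and 112 CPM in the 5 libraries at 2 months. It lay at 168, 132, 144, 141 and 134 CPM at 9 months and at 143, 147, 151, 138 and 135 CPM at 15 months. At 24 months it lay at 160.1, 164, 177, 141 and 155 CPM. All 5 libraries at 24 months were above all 5 at 2 months, a separation that 5.65% of tested precursors showed, and the values at 9, 15 and 24 months overlapped. At 30 months mir-219b lay at 309, 460.0, 331, 419.7 and 374 CPM, clear of every younger library. The mean was 379 ± 62.2 CPM at 30 months and 126 ± 8.82 CPM at 2 months (SD, n = 5 each), a log2 fold change of 1.59 ± 0.09 (SE, edgeR adjusted p = 4.92e-12).

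mir-219a-1, the chromosome 17 source of miR-219a-5p, lay at 39.6, 38.3, 33.5, 30.5 and 25.6 CPM at 2 months and at 47.9, 34.4, 39.4, 38.5 and 42.6 CPM at 9 months. It lay at 42.0, 44.0, 42.4, 40.3 and 43.7 CPM at 15 months and at 45.4, 44.1, 54.1, 34.2 and 38.8 CPM at 24 months. The libraries of these 4 ages overlapped. At 30 months the values were 88.2, 122, 94.3, 102 and 93.4 CPM, and the lowest of them was above the highest value at any younger age. The log2 fold change between 30 and 2 months was 1.58 ± 0.12 (SE, edgeR adjusted p = 1.29e-09). Behind these levels stood 147 to 354 reads per library up to 24 months and 365 to 882 reads at 30 months.

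mir-219a-2, the minus-strand hairpin at the chromosome 2 locus, took most of the miR-219 reads. It lay at 832, 783, 773, 712 and 758 CPM at 2 months, at 877, 867, 793, 759 and 759.6 CPM at 9 months and at 774, 768, 804, 750.2 and 775 CPM at 15 months. The first 3 ages overlapped. At 24 months it lay at 846, 858, 931, 818 and 825 CPM, and at 30 months at 1062, 1447, 1207, 1413 and 1202 CPM. Every library at 30 months was above every younger one, and every library at 24 months was above every one at 15 months, a separation that 0.941% of tested precursors showed, although the test between those ages did not pass. Between 30 and 2 months the log2 fold change was 0.71 ± 0.07 (SE, edgeR adjusted p = 3.88e-08).

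mir-219c, the plus-strand hairpin at the chromosome 17 locus, was at the edge of detection. It had 0 to 5 reads per library at 2 to 24 months and 2 to 10 reads at 30 months, and the filter on low counts set it aside. Its reads summed to 27 over the 5 libraries at 30 months and to 9 over the 5 at 2 months, and the libraries of these ages overlapped. Without a filter on low counts its log2 fold change was 1.40 ± 0.48 (SE, edgeR adjusted p = 0.0436), a value that rests on these few reads. It held between 0 and 1.92% of the reads of mir-219a-1 and mir-219c together.

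mir-338 and mir-3065, on opposite strands of 1 locus, divided their reads almost evenly in every library. mir-3065 held between 49.5% and 50.7% of the reads of the pair. The levels of the pair are therefore not separate measurements, and mir-338 is described for both. It lay at 1615, 2091, 1831, 1786 and 1968 CPM at 2 months, at 2275, 1853, 2122, 1942 and 1877 CPM at 9 months and at 2203, 2006, 1853, 2008 and 2078 CPM at 15 months. At 24 months it lay at 2514, 2281, 2362, 2018 and 2158 CPM, and at 30 months at 2462, 2985, 2634, 3004 and 2404 CPM. Neighbouring ages overlapped throughout, including 30 and 24 months, but every library at 30 months was above every one at 2 months. Between these ages the log2 fold change was 0.54 ± 0.08 for mir-338 (SE, edgeR adjusted p = 1.11e-05) and 0.53 ± 0.08 for mir-3065 (adjusted p = 8.96e-06).

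**Figure D2:**
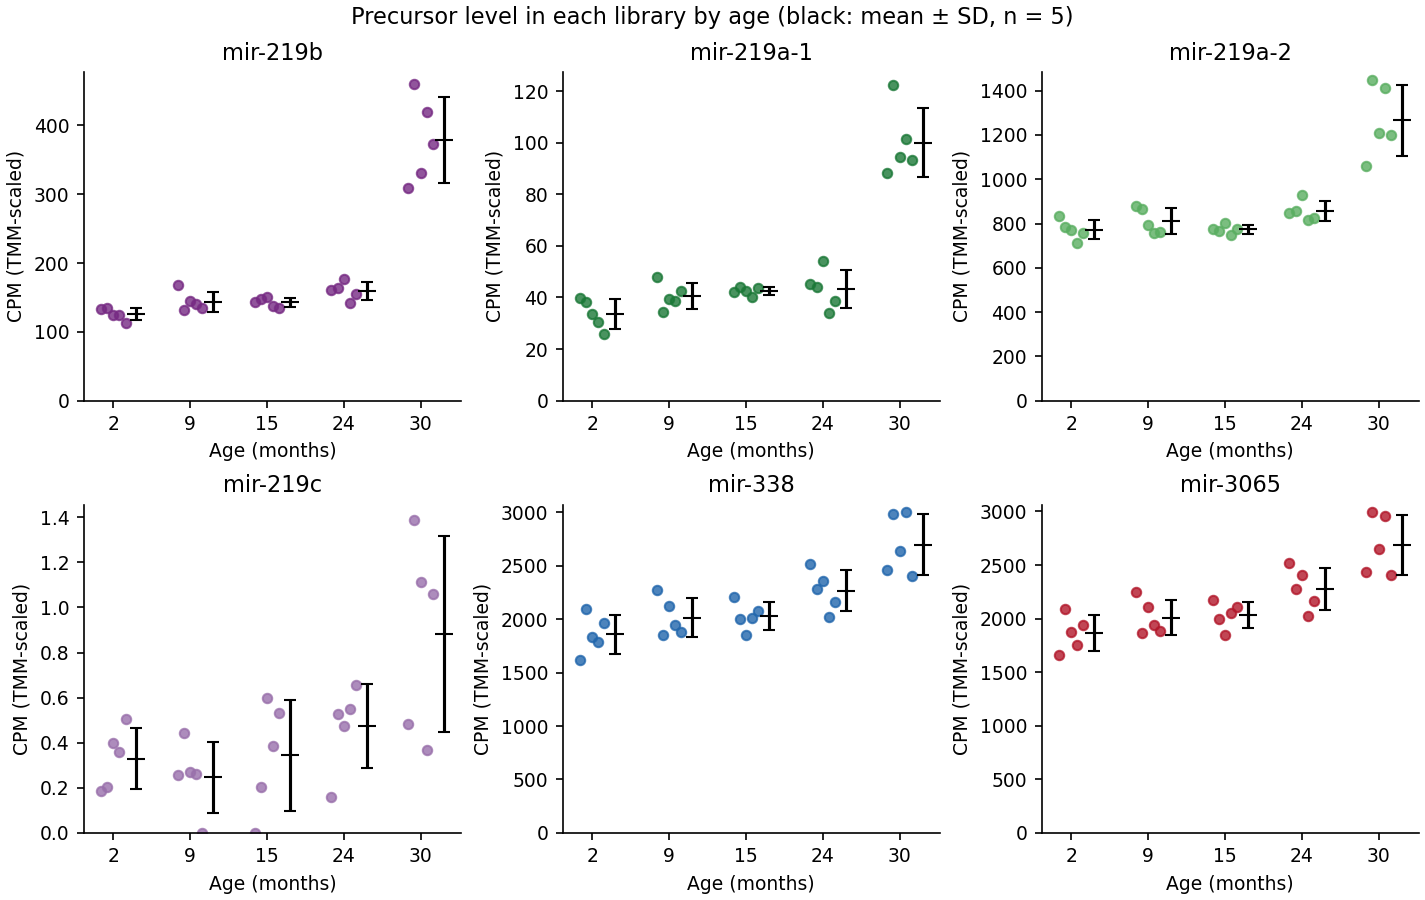
CPM of the 6 precursors in each library against age in months, with 5 points per age and the mean ± SD in black beside them; each panel has its own y axis from 0. mir-219b, mir-219a-1 and mir-219a-2 at 30 months lie above every younger library, mir-338 and mir-3065 climb with overlapping neighbours, and mir-219c stays below 1.4 CPM.

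Between 30 and 2 months, 5 of 5 tested members passed the test in the upward direction, against 36.9% of all 425 precursors in either direction and 19.1% upward. mir-338 and mir-3065 are not separate measurements and the miR-219 hairpins share sequence, so these 5 are not independent results. The upward and downward calls over all precursors were 81 and 76, and 50 and 91 under upper-quartile scaling. All 5 members were called higher under each of the scalings tried, and without the lane 3 libraries, where the log2 fold changes were 1.59 for mir-219b, 1.64 for mir-219a-1, 0.73 for mir-219a-2 and 0.50 for both mir-338 and mir-3065. In all 5 members each of the 5 libraries at 30 months exceeded each of those at 2 months, which held for 10.4% of tested precursors. Within the 4 sequencing lanes that held a library of each age, the log2 difference lay between 1.3 and 1.89 for mir-219b, between 1.23 and 1.99 for mir-219a-1, between 0.46 and 1.02 for mir-219a-2 and between 0.42 and 0.74 for mir-338.

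The hairpins share sequence and can share reads, so the loci were also tested as sums. These do not depend on how reads were divided among the hairpins if each read was counted once. Whether it was is not given in the sources used here. The 4 miR-219 hairpins together averaged 1746 ± 233 CPM at 30 months and 931 ± 53.3 CPM at 2 months (SD, n = 5 each), a log2 fold change of 0.90 ± 0.07 (SE, edgeR adjusted p = 2.61e-09). mir-338 and mir-3065 together averaged 5389 ± 563 CPM at 30 months and 3722 ± 345 CPM at 2 months (SD, n = 5 each), a log2 fold change of 0.52 ± 0.08 (SE, edgeR adjusted p = 3.35e-05). Both sums rose, and without the lane 3 libraries their log2 fold changes were 0.93 and 0.50. Set among the single precursors averaging 10 CPM or more, the miR-219 sum ranked 6. Its own parts mir-219b and mir-219a-1 were counted among those above it.

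By 24 months 4 of the 5 tested members had risen over 2 months, against 22.6% of all precursors in either direction and 11.1% upward. Among these 4, mir-338 and mir-3065 are not separate measurements, and mir-219a-1 and mir-219b share sequence. The log2 fold changes were 0.37 ± 0.12 for mir-219a-1 (SE, edgeR adjusted p = 0.0300) and 0.34 ± 0.09 for mir-219b (adjusted p = 0.00778). mir-338 and mir-3065 were both higher by 0.29 ± 0.08 (adjusted p = 0.00913 and 0.00665). mir-219a-2, the hairpin with most of the miR-219 reads, did not pass at 0.15 ± 0.07 (adjusted p = 0.112), and neither did the miR-219 sum at 0.18 ± 0.07 (adjusted p = 0.0596). The sum of mir-338 and mir-3065 passed at 0.29 ± 0.08 (adjusted p = 0.0132). The call of mir-219a-1 was lost with lane as a covariate (0.31), with only these 2 ages in the fit, without 2-month replicates 3, 4 or 5 and without 24-month replicates 1, 2 or 3, and that of mir-338 without 24-month replicate 1 (0.22).

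The steps between 2 and 24 months gave no calls among the members. At 9 against 2 months, where 7.76% of precursors were called in either direction and 1.88% upward, 0 of 5 members passed by edgeR or DESeq2 (2 at an unadjusted p under 0.05), and the largest log2 fold change was 0.27 ± 0.12 for mir-219a-1 (SE, adjusted p = 0.183). mir-219a-1 passed without the lane 3 libraries (0.40, adjusted p = 0.0420). At 15 against 9 months 0% of precursors and at 24 against 15 months 0.235% were called by edgeR. At an unadjusted p under 0.05 the numbers were 27 and 46 of 425, and DESeq2 called 2 and 2.

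The last 6 months of the series set the members apart from each other. At 30 against 24 months 8.71% of precursors were called in either direction and 6.12% upward. mir-219b was higher at 30 months by a log2 fold change of 1.25 ± 0.09 (SE, edgeR adjusted p = 6.68e-10), mir-219a-1 by 1.21 ± 0.12 (adjusted p = 1.87e-07) and mir-219a-2 by 0.57 ± 0.07 (adjusted p = 2.84e-06). All libraries of these 3 hairpins at 30 months were above all at 24 months, which held for 3.06% of tested precursors. Without the lane 3 libraries the log2 fold changes were 1.18, 1.13 and 0.54. The 6 precursors outside the set with at least 10 CPM and a larger log2 fold change than mir-219a-1, between 1.62 and 2.32, did not pass (adjusted p from 0.188 to 0.236).

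mir-338 and mir-3065 passed at this step by a narrow margin, with log2 fold changes of 0.25 ± 0.08 and 0.24 ± 0.08 (SE, edgeR adjusted p = 0.0444 each). Their sum did not pass, at 0.24 ± 0.08 (adjusted p = 0.0756). The call of mir-338 was lost in 22 of 25 refits that left out 1 library (0.19 to 0.28 over all 25), and those of both hairpins under each of the 3 other scalings, without a filter on low counts, with only these 2 ages and without the lane 3 libraries (0.22 and 0.21). Within the 4 lanes with both ages the log2 difference lay between 0.21 and 0.35 for mir-338 and between 1.01 and 1.52 for mir-219b.

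**Figure D3:**
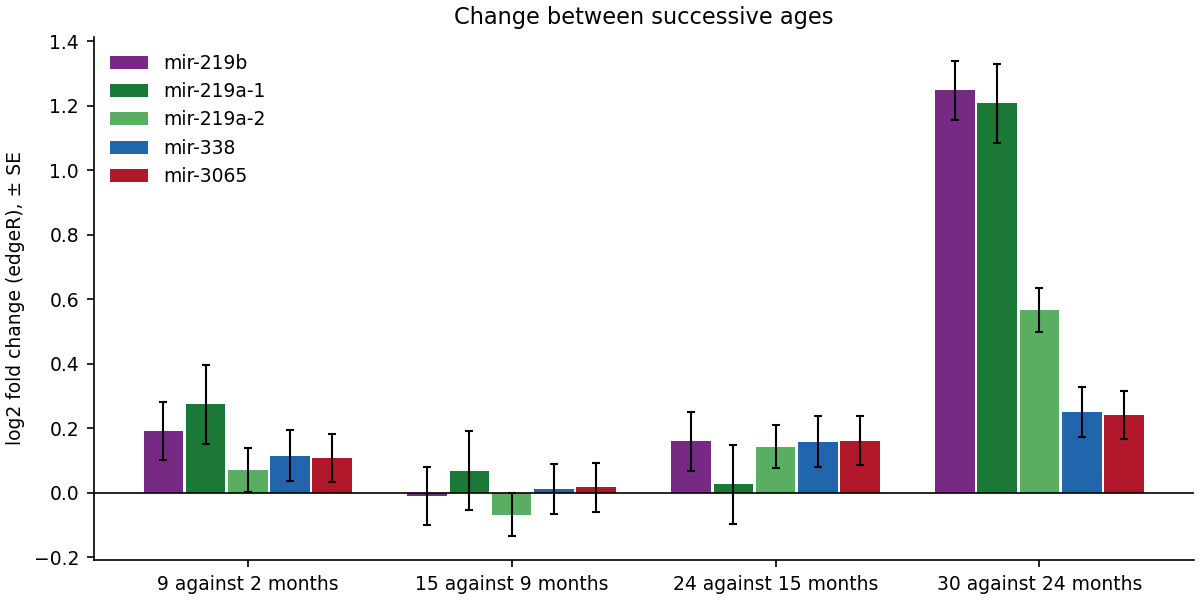
Log2 fold change of the 5 tested members between successive ages, from the edgeR fit over all 25 libraries, with SE as error bars; each group of bars sets the later age against the earlier one. In the first 3 intervals no member passed, and at 30 against 24 months mir-219b (1.25) and mir-219a-1 (1.21) stand above mir-219a-2 (0.57) and the mir-338 pair (0.25 and 0.24).

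**Figure D4:**
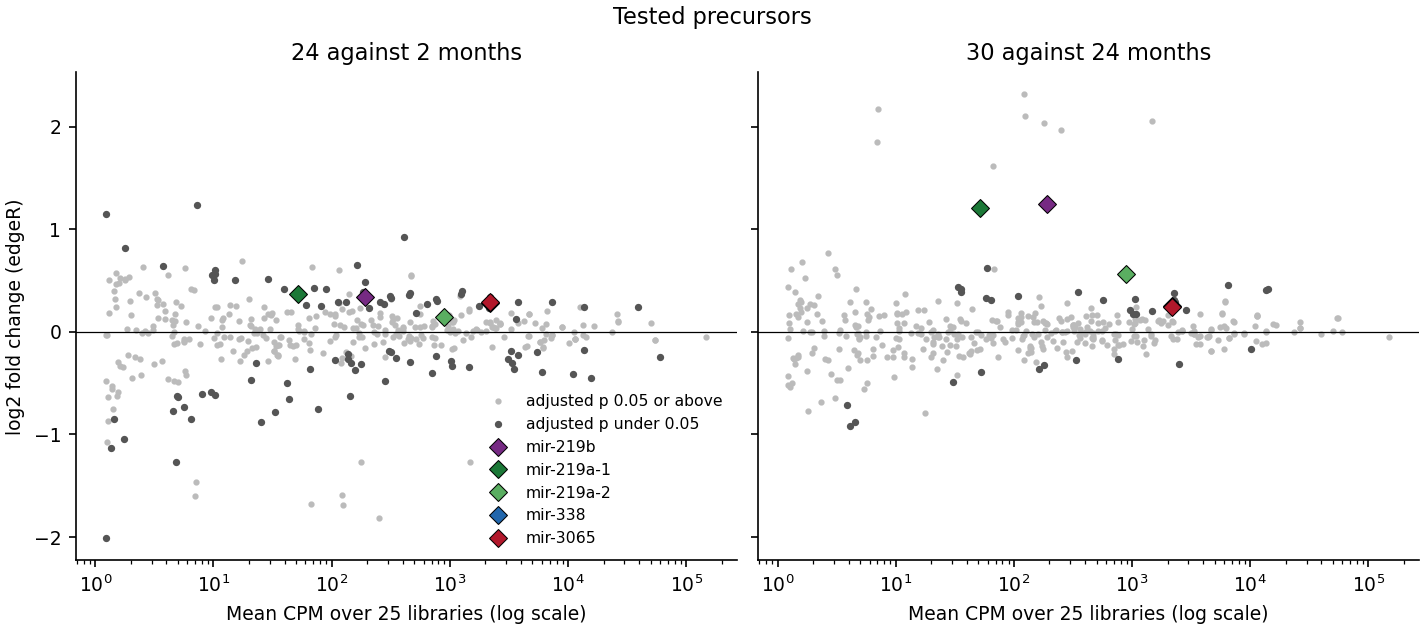
Log2 fold change of the 425 tested precursors against their mean CPM over 25 libraries (log scale), at 24 against 2 months and at 30 against 24 months, with calls in dark grey and the members as diamonds; mir-338 lies under mir-3065. The miR-219 hairpins lie within the cloud in the left panel and above nearly all called precursors in the right panel, where the 6 points above mir-219b with at least 10 CPM are not called.

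Any difference among the 5 ages passed for all 5 tested members (edgeR adjusted p from 1.98e-12 to 9.39e-05), against 32.7% of precursors. Here too the 5 members are not independent results. A straight slope on age passed for all 5, against 36.5% of precursors in either direction and 20.2% upward, with 0.56 log2 per 12 months for mir-219b, 0.54 for mir-219a-1, 0.25 for mir-219a-2 and 0.21 for both mir-338 and mir-3065. The age means of the 3 miR-219 hairpins departed from that slope, with edgeR adjusted p of 3.47e-07 for mir-219b, 1.73e-04 for mir-219a-1 and 2.09e-04 for mir-219a-2, where 7.06% of precursors did so. mir-338 and mir-3065 did not pass that test (adjusted p = 0.395 and 0.400). The rate of change between 24 and 30 months was also compared directly with the rate between 2 and 24 months, a contrast chosen with earlier results of these data known. The later rate was higher by 0.19 ± 0.02 log2 per month for mir-219b (SE, adjusted p = 8.18e-08), by 0.18 ± 0.02 for mir-219a-1 (adjusted p = 1.64e-05) and by 0.09 ± 0.01 for mir-219a-2 (adjusted p = 1.30e-04), against 5.18% of all precursors in either direction and 4% with a higher later rate. For mir-338 the difference of rates was 0.03 ± 0.02 (adjusted p = 0.284).

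Ratios of reads within a library need no scaling, and they showed that the reads counted for the miR-219 hairpins did not keep their proportions. How reads of shared sequence were assigned to these hairpins is not given, and its part in the ratios was not tested. mir-219b held 22.5%, 24.1%, 21.5%, 22.9% and 23.7% of the reads of mir-219b and mir-219a-2 together at 30 months. At 24 months the shares were 15.9%, 16.1%, 16%, 14.7% and 15.8%, and at 2 months 13.8%, 14.6%, 13.9%, 14.9% and 12.9%. The 30-month libraries overlapped with neither younger age. The log2 ratio of mir-219b to mir-219a-2 was higher at 30 months by 0.68 than at 24 months and by 0.87 than at 2 months (exact two-sided permutation test, p = 0.00794, the smallest that 5 against 5 libraries allow, adjusted p = 0.0127 over 8 ratio comparisons). The log2 ratio of mir-219a-1 to mir-219a-2 was higher by 0.66 and by 0.87 in the same comparisons, with the same exact p and adjusted p. Within the 4 lanes the ratio of mir-219b to mir-219a-2 was higher at 30 than at 2 months by 0.85 to 0.96.

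mir-219b and mir-219a-1, which lie on different chromosomes, had nearly the same mean ratio at 2, 24 and 30 months. The mean was lowest at 15 months, and the ratios at 9 and 15 months were not tested. miR-219a-5p lies whole in mir-219a-1 and in the opposite strand of mir-219b, so both counts may hold the same reads. The part of such reads in this ratio was not tested. mir-219b had 3.50, 3.76, 3.51, 4.13 and 4.0 times the reads of mir-219a-1 at 30 months, and 3.36, 3.50, 3.73, 4.06 and 4.38 times at 2 months. Over all 25 libraries the ratio lay between 3.09 and 4.38. The log2 ratio differed by -0.00 between 30 and 2 months (exact permutation p = 0.937), a value that turned positive in some refits, and by 0.02 between 30 and 24 months (exact permutation p = 0.746). The mean ratio was 3.81 ± 0.415 at 2 months, 3.56 ± 0.254 at 9 months, 3.36 ± 0.169 at 15 months, 3.73 ± 0.348 at 24 months and 3.78 ± 0.285 at 30 months (SD, n = 5 each).

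The miR-219 sum also gained on the mir-338 and mir-3065 sum. The ratio of the sums was 0.298, 0.339, 0.309, 0.324 and 0.347 at 30 months, 0.209, 0.234, 0.244, 0.246 and 0.236 at 24 months, and 0.307, 0.229, 0.252, 0.245 and 0.229 at 2 months. The 30-month libraries lay above all those at 24 months and overlapped with 1 library at 2 months, that of lane 3. The lane 3 library had the highest ratio of its age at all 5 ages. The log2 ratio was higher by 0.47 than at 24 months (exact permutation p = 0.00794, adjusted p = 0.0127) and by 0.37 than at 2 months (exact permutation p = 0.0159, adjusted p = 0.0212). Within the 4 lanes that held both ages it was higher by 0.40 to 0.70 than at 24 months and by 0.18 to 0.47 than at 2 months.

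**Figure D5:**
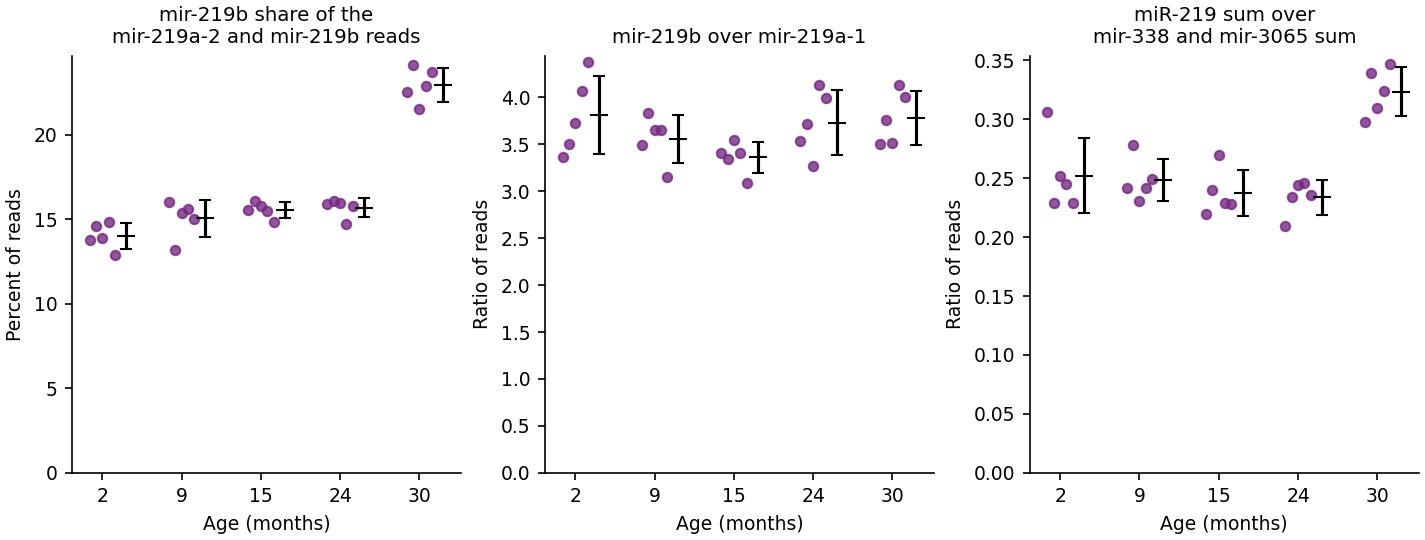
Share of mir-219b in the reads of mir-219a-2 and mir-219b (percent), ratio of mir-219b to mir-219a-1 reads, and ratio of the miR-219 sum to the mir-338 and mir-3065 sum, in each library against age in months, with the mean ± SD (n = 5) in black. The left and right measures step up at 30 months, while the middle one stays between 3.09 and 4.38 at all ages.

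The division of reads within opposite-strand pairs can be set beside other pairs in the same table. Of 12 such pairs in which no library had fewer than 100 reads, 8 had all mature arms with a RefSeq entry inside the partner's hairpin. Of these 8 pairs 7, mir-338 with mir-3065 among them, divided their pooled reads between 49% and 51%. The other was mir-219a-2 with mir-219b, where mir-219a-2 held 82.5% of the pooled reads. miR-219a-2-3p and miR-3065-3p had no such entry, so whether they lie inside the partner's hairpin was not checked. mir-219a-1 with mir-219c, whose 2 mir-219a-1 arms each reach beyond the mir-219c hairpin, stood at 99.1%. The part of the authors' counting in these shares was not tested.

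Libraries that were high for their age in 1 miR-219 hairpin tended to be high in another. Each library of an age was on its own lane, so animal and lane cannot be told apart within an age. With the age means removed, log2 CPM of mir-219a-1 and mir-219b were correlated over the 25 libraries (r = 0.80, permutation p = 1e-05, the smallest that the draws can give; rho = 0.79, adjusted permutation p = 9.00e-05). Without the 2 libraries farthest from the median of mir-219a-1, r was 0.78. For mir-219a-2 with mir-219b r was 0.79 (permutation p adjusted over 3 relations = 0.00130, rho = 0.74) and 0.65 without the 2 farthest libraries. For the miR-219 sum with the mir-338 and mir-3065 sum r was 0.50 (adjusted permutation p = 0.0401, rho = 0.48), and 0.37 without the 2 farthest libraries (permutation p = 0.149). Without the lane 3 libraries it was 0.80 (adjusted permutation p = 9.40e-04), and 0.74 when the 2 farthest of the remaining libraries were also left out (permutation p = 0.00720), so its size depended on the lane 3 libraries. For the other relations r without lane 3 was 0.79 and 0.90. Hairpins that share sequence can share reads, and the part of that in these correlations was not tested.

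Of 18 tested precursors on a list of other miRNAs with a reported role in the oligodendrocyte lineage, 2 rose, 5 fell and 11 did not pass between 30 and 2 months, a share of calls close to the 36.9% over all precursors. They had a median log2 fold change of -0.10 against 0.05 over all 425, of which 19.1% rose and 17.9% fell. The rises were mir-146a, an inhibitor of inflammatory signalling (0.99 ± 0.13, SE, edgeR adjusted p = 3.90e-06), and mir-92a-1 (0.22 ± 0.08, adjusted p = 0.0267). The falls included mir-212, a miRNA induced by neuronal activity (-0.48 ± 0.06, adjusted p = 3.90e-06), and mir-20a (-0.46 ± 0.12, adjusted p = 0.00513) and mir-17 (-0.29 ± 0.08, adjusted p = 0.00690) of the proliferation-associated miR-17-92 cluster, to which mir-92a-1 also belongs. The remaining falls were mir-138-1 (-0.18 ± 0.06) and mir-138-2 (-0.19 ± 0.06). These are copies of the same miRNA, so the 5 falls are not independent results. At 30 against 24 months 0 rose by edgeR's test (1, mir-146a, at an unadjusted p under 0.05) and 1, mir-20a, fell (-0.49 ± 0.12, adjusted p = 0.0163), against 6.12% and 2.59% of all precursors.

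Markers of other brain cell types were followed beside these changes. Over all tested precursors 19.1% rose and 17.9% fell between 30 and 2 months, and 6.12% rose and 2.59% fell at 30 against 24 months. Of 7 microglia and immune precursors 5 rose and 1 fell between 30 and 2 months, with summed levels of 6633 to 7740 CPM at 30 months and 5111 to 5817 CPM at 2 months. At 30 against 24 months 0 of the 7 rose by edgeR's test (2 at an unadjusted p under 0.05) and 1, mir-150 of lymphocytes, fell (-0.26 ± 0.07, SE, adjusted p = 0.0261); the sums were 6633 to 7740 CPM at 30 months and 5567 to 7192 CPM at 24 months. mir-146a stands in this list and in the oligodendrocyte list. In the neuron list that follows, numbered copies such as mir-128-1 and mir-128-2, both among its falls, are not independent results. Of 14 neuron precursors 4 fell and 0 rose between 30 and 2 months, against 17.9% and 19.1% of all precursors, with sums of 70719 to 89647 CPM at 30 months and 78694 to 88866 CPM at 2 months, and 0 changed at 30 against 24 months by edgeR's test (1 at an unadjusted p under 0.05), where the 24-month sums were 67232 to 76715 CPM. Of 6 choroid plexus and ciliated-cell precursors 3 rose between 30 and 2 months, with sums of 9158 to 10201 CPM at 30 months and 7717 to 9189 CPM at 2 months, and 0 changed at 30 against 24 months (0 also unadjusted). Of 4 endothelial and mural precursors 0 changed in either comparison by edgeR's test (0 also unadjusted), with sums of 33383 to 36185 CPM at 30 months and 32815 to 37394 CPM at 2 months. No defining marker was at 0 reads in any age, and the part of these cell types in the miR-219 and miR-338 levels was not tested.

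The precursors whose course over the 4 later ages came closest to each locus were ranked by the root mean square difference in log2 fold change against 2 months, among 320 with at least 10 CPM. Closest to the miR-219 sum were mir-8114 (0.17), mir-33 (0.19), mir-210 (0.21), mir-144 (0.22) and mir-339 (0.22). Of these 5 mir-33 had the largest change in the last interval, with a log2 fold change at 30 against 24 months of 0.63 ± 0.09 (SE, edgeR adjusted p = 3.84e-05). Closest to the mir-338 and mir-3065 sum were mir-21a (0.04), mir-344d-3 (0.06), mir-344d-1 (0.07), mir-339 (0.07) and mir-344d-2 (0.08). The courses near the miR-338 locus were thus matched more tightly than those near the miR-219 loci, and these distances are a description over 5 ages with no test.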

How the data were processed

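The deposited table holds raw counts, 1 whole number per precursor and library, for 1193 precursors and 25 libraries. Per the labels' protocols the TruSeq small RNA kit was used. Trimmomatic 0.36, SAMtools 1.3.1-9 and bcl2fastq 1.8.4 appear in the submitters' processing notes. Not given in the sources used here are the aligner, the counter, whether strand was used and the build. Column names carry the sequencing lane (6 lanes), taken as a technical batch. Replicate numbers follow deposition order.

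All 25 libraries entered 1 edgeR 4.0.16 quasi-likelihood fit (R 4.3.3, limma 3.58.1) with a mean per age, TMM scaling (factors 0.952 to 1.04) and filterByExpr, which kept 425 precursors and set aside 768. The Benjamini-Hochberg adjustment ran over all tested precursors, with a threshold of 0.05. An SE is the log2 fold change divided by the square root of F. Sums replaced the rows of a locus family in the same table and were refitted. Read ratios (0.5 added to counts) were compared by exact permutation over libraries with SciPy 1.17.1, and within-age correlations by 100000 permutations within ages on log2(CPM + 0.5). DESeq2 1.42.0, other scalings, filters, a lane term and left-out libraries were alternatives. The fit was tested on simulated data. Reads carry no molecular identifiers, so the spread between animals sets the precision. Between replicates, chi-square per degree of freedom was 22.1 to 343 over 50 pairs, so no pair was counted as 1 library.

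All 6 members are named, with the oligodendrocyte-list members past the threshold and the 5 closest precursors per locus. The members and lists were chosen with earlier results of these data known. Sequences are from RefSeq (GRCm38.p6), which held every hairpin of the set, and gene positions from GENCODE M21; coordinates are 1-based and were matched by name, not taken from the authors' alignment.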

Additional observations from a re-analysis of the deposited data

Results flagged for a closer look

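In 60 sets of 5 libraries of 1 age, 12 measures at 5 ages, 1 library lay far from the others by Dixon's criterion (gap over range above 0.71), a criterion that chance meets in about 1 of 20 sets. mir-219b held 14.7% of the reads of mir-219b and mir-219a-2 in 24-month replicate 4, and the nearest of the other 24-month libraries was at 15.8%. In the same library, that of lane 3, mir-219b (141 CPM) and mir-219a-1 (34.2 CPM) were the lowest of their age. So were mir-219a-2 (818 CPM), mir-338 (2018 CPM) and mir-3065 (2025 CPM). Without this library, the log2 ratio of mir-219b to mir-219a-2 at 30 against 24 months stayed within 0.65 to 0.71. That was the range over all 10 ratios with 1 library left out.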

How the results depend on the processing

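No call changed direction. Signs changed only for differences near 0 that passed under no setting. At 15 against 9 months mir-219b (-0.01 as reported) was at 0.000368 without a filter on low counts, 0.0208 with lane as a covariate and -0.0370 to 0.0422 without 1 library. At that step upper-quartile scaling gave -0.00850 for mir-338 and -0.00258 for mir-3065, and the refits without 1 library gave -0.0180 to 0.0534 for mir-338, -0.00738 to 0.0615 for mir-3065 and -0.0106 to 0.0672 for their sum. mir-219a-1 at 24 against 15 months was at -0.0139 with lane as a covariate and -0.0575 to 0.10 without 1 library. The log2 ratio of mir-219b to mir-219a-1 at 30 against 2 months was 0.0128 with 5 added to counts and -0.0478 to 0.0469 without 1 library, and at 30 against 24 months -0.0237 to 0.0607 without 1 library. No paired analysis was possible because the replicate numbers only follow deposition order and pair no animals across ages. DESeq2 was not run for the any-difference and departure tests. Over the 9 other settings and 25 refits without 1 library, the 30 against 2 months calls of all 5 members and both sums and the 30 against 24 months calls of mir-219a-1, mir-219a-2, mir-219b and the miR-219 sum stood. At 30 against 24 months the mir-338 and mir-3065 sum passed with a mean of at least 10 CPM (0.25), with DESeq2 (0.24), with lane as a covariate (0.24) and in 17 of 25 refits (0.22 to 0.30 over all 25). mir-3065 lost its call there in 23 of 25 refits. The miR-219 sum passed at 24 against 2 months with library totals (0.20), without lane 3 (0.23), with only those ages (0.17) and without 2-month replicate 1, 24-month replicate 4 or 30-month replicates 1 or 2. mir-219a-1 at 24 against 2 months ranged over 0.27 to 0.44 in the refits. Counts of calls moved without a filter on low counts (9 against 2 months 15, 24 against 15 months 0, 30 against 24 months 20, departure 19, rate 6) and with lane as a covariate (50 at 9 against 2 months, 2 at 24 against 15 months, departure 53, rate 40). With upper-quartile scaling there were 0 at 24 against 15 months, 19 for the departure and 11 for the rate. At 24 against 15 months 0 were called with a mean of at least 10 CPM or without lane 3, and 2 with DESeq2, which also called 2 at 15 against 9 months and 35 for the rate; library totals gave 1 at 15 against 9 months. With only the 2 ages, 9 were called at 9 against 2 months and 19 at 30 against 24 months. Without 1 library the counts ranged over 19 to 39 (9 against 2 months), 0 to 1 (15 against 9 and 24 against 15 months), 16 to 53 (30 against 24 months), 19 to 39 (departure) and 6 to 40 (rate). The causes were not tested. mir-219c, at 0 to 10 reads per library, is limited by depth.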
